A study of Mus musculus with 16 samples.

Results

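The Polycomb complex genes described here are Ezh1, Ezh2, Eed, Suz12, Jarid2, Mtf2 and Aebp2 of Polycomb repressive complex 2 (PRC2) and Rnf2, Ring1 and Pcgf6 of Polycomb repressive complex 1 (PRC1). They are taken by name, with no threshold on their values, and are 10 of the 22375 genes in the deposited count tables. All 10 passed the filter on low counts. Total RNA depleted of ribosomal RNA was sequenced from mouse embryonic stem (ES) cells, which are pluripotent cells of the early embryo, grown on gelatin in medium with serum and leukaemia inhibitory factor. The WT cells were E14Tg2a cells of 129/OLA background, and the mutant cells were a Cfp1-/- line that lacks Cfp1, the CpG-binding subunit of the Set1 histone H3K4 methyltransferase complexes, encoded by Cxxc1. Each line was left untreated or treated for 6 h with 1 μM doxorubicin, a DNA-damaging topoisomerase poison, and the label of each treated sample gives the dose as 1 mM in place of the 1 μM of the treatment protocol. Each of the 4 groups held 2 biological replicates, each sequenced in 2 technical replicates, and was compared as n = 2. The mutant is a single line, so a difference between the lines cannot be told apart from other differences between those cultures.

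Polycomb proteins keep developmental genes silent. PRC2 places H3K27me3 through its catalytic subunit, Ezh2 or the closely related Ezh1, which works only together with Eed and Suz12, and accessory subunits such as Mtf2, Jarid2 and Aebp2 guide the complex to CpG islands and tune its activity. PRC1 attaches ubiquitin to histone H2A through Rnf2 or its paralogue Ring1, each paired with a Pcgf protein that sets the type of PRC1. In ES cells both complexes occupy the CpG islands of silent developmental regulators, many of which also carry H3K4me3. In the build of the deposited tables, NCBIm37, the PRC2 core genes span Ezh1 (ENSMUSG00000006920) at chr11:101052429-101087777 (minus strand), Ezh2 (ENSMUSG00000029687) at chr6:47480273-47545340 (minus strand), Eed (ENSMUSG00000030619) at chr7:97103166-97129493 (minus strand) and Suz12 (ENSMUSG00000017548) at chr11:79806608-79847625 (plus strand). The accessory genes span Jarid2 (ENSMUSG00000038518) at chr13:44824843-45017012, Mtf2 (ENSMUSG00000029267) at chr5:108494693-108538023 and Aebp2 (ENSMUSG00000030232) at chr6:140570970-140626993, all on the plus strand. The PRC1 genes span Rnf2 (ENSMUSG00000026484) at chr1:153316536-153347953, Ring1 (ENSMUSG00000024325) at chr17:34157737-34161625 and Pcgf6 (ENSMUSG00000025050) at chr19:47108109-47125380, all on the minus strand. Counts are of reads on their annotated exons.

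The counts used for the 8 biological replicates summed to between 11772320 and 29422711, and every member but Ring1 had at least 431 counts in each. Cxxc1 had 1412 and 1117 counts in untreated and 616 and 829 in treated WT cells, against 4 and 3 in untreated and 3 and 1 in treated Cfp1-/- cells. Technical replicates agreed within sampling noise in 6 of 8 libraries, and the exceptions were replicate 1 of both treated groups. In treated Cfp1-/- replicate 1, the second technical replicate held no counts for 209 of 291 well-covered genes on chromosome 19, 225 of 280 on chromosome X and 5 of 5 on chromosome Y, and for 0 of 7744 elsewhere, and was left out. Of the members, only Pcgf6 lies on one of these chromosomes, and it had 856 counts in the first of those technical replicates and 0 in the second. In the second technical replicates of these replicates the share of reads on Eed was 0.644 (WT) and 0.635 (Cfp1-/-) times that in the first. For Ezh2 it was 0.778 (WT) and 0.807 (Cfp1-/-) times. Of 9 ES cell markers all were detected in every group. Their summed level was 2756 to 3782 CPM in untreated WT and 3500 to 3502 CPM in untreated Cfp1-/- cells. For summed markers, CPM are counts relative to the library total. For single genes, CPM are counts relative to the library size scaled by TMM.

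Per kilobase of exon, the PRC2 genes Eed, Mtf2, Jarid2 and Suz12 had the highest levels of the members in untreated WT ES cells. Eed, the subunit that binds H3K27me3, stood at 213 ± 37.6 CPM per kb (SD, n = 2) and Mtf2, which binds unmethylated CpG DNA, at 198 ± 36.5, and these levels overlapped. Both lay at or above the 98.5th percentile of the genes tested. Jarid2, a DNA-binding partner that belongs to the Jumonji family but lacks its demethylase activity, followed at 109 ± 25.8, the scaffold subunit Suz12 at 83.5 ± 9.83 and the ubiquitin ligase Rnf2 at 70.0 ± 4.72, and neighbours among these 3 lay within the sum of their SDs. Below them came Ezh2 at 39.7 ± 0.988, the zinc finger subunit Aebp2 at 25.1 ± 4.16 and Pcgf6, which defines the PRC1.6 complex, at 22.1 ± 2.31, of which Aebp2 and Pcgf6 overlapped. Ezh1 stood at 4.89 ± 0.249 and Ring1 at 1.45 ± 0.00695 CPM per kb, so each minor paralogue lay below its partner in both libraries. Ring1 lay at percentile 35.1 and Ezh1 at percentile 52.1 of the genes tested. Ezh1 and Ring1 were also the lowest members in the other 3 groups, and Eed was the highest in all 4. In untreated Cfp1-/- cells Suz12 stood second, at 170 ± 50.6 CPM per kb, above Mtf2 at 124 ± 8.04.

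Because Cfp1 binds CpG, the promoters of these genes are described by their CpG content. RefSeq promoter windows of 300 bases (250 before to 50 after the annotated start, build GRCm38.p6) were found for 10 of 10 members, 14 windows in all. The CpG-richest window of each member held between 17 (Eed) and 41 (Suz12) CpG, with a median of 27.0, beside a median of 7 over all 32851 windows, which were not reduced to the richest of each gene. Of the 14 windows, 3 lay below 7, a further window of Mtf2 with 2 CpG and 2 of Aebp2 with 4 each. Those of Suz12 and Ezh1, which were higher in Cfp1-/- cells, of Mtf2, which was lower there, and of Jarid2 and Ezh2, which both fell with doxorubicin, are given 5′ to 3′ on the strand of the gene, with each CpG in capitals:
Suz12: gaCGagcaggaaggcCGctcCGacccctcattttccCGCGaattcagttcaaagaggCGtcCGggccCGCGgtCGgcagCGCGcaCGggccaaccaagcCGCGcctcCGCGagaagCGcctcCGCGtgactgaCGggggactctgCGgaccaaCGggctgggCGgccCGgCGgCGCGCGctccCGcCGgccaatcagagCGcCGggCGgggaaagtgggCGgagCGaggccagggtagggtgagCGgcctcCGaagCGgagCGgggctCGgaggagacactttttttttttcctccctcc
Ezh1: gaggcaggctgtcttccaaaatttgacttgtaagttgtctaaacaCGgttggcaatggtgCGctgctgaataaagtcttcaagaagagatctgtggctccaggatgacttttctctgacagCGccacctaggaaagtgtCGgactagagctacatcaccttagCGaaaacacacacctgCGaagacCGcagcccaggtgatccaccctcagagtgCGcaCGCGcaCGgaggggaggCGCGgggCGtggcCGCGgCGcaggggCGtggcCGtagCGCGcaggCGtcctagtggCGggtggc
Mtf2: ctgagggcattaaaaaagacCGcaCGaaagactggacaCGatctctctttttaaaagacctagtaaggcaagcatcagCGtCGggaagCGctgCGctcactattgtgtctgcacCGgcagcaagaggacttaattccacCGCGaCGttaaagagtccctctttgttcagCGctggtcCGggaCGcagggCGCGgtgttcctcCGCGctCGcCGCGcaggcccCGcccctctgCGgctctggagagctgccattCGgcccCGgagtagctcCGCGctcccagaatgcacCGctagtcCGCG
Jarid2: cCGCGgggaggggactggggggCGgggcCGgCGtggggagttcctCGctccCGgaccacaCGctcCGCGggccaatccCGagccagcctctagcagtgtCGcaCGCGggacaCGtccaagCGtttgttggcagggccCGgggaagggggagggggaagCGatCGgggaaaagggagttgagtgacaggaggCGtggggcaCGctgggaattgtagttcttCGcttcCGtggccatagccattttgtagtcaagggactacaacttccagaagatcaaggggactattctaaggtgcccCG
Ezh2: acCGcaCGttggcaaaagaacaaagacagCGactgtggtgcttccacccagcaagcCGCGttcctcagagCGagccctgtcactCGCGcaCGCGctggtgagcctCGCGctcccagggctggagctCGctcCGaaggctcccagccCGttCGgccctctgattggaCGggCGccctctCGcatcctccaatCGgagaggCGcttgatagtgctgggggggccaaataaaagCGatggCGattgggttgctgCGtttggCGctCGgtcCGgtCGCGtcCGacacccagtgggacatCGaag
Suz12 (chr11:79992856-79993155, plus strand) held 41 CpG, Ezh2 (chr6:47594981-47595280, minus strand) 31, Mtf2 (chr5:108065424-108065723, plus strand) 30, Jarid2 (chr13:44730524-44730823, plus strand) 24 and Ezh1 (chr11:101226414-101226713, minus strand) 23. The CpG-richest windows of Suz12 and Ezh1, and that of Mtf2, lay above the median of all windows. The letters TTTCCCGC, TTTGGCGC, TTTCGCGC and TTTGCCGC, which are forms of the site bound by the cell cycle factors of the E2F family, were searched on both strands. They occurred in 2.26% of all windows and in 2 of the 14 windows of the members. These were TTTGGCGC at bases 254 to 261 of the Ezh2 window and TTTCCCGC at bases 32 to 39 of the Suz12 window. Each of the searched forms holds a CpG, and windows of like CpG content were not compared. A match in these letters is a description of the window and not of binding.

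Doxorubicin lowered most Polycomb transcripts in WT ES cells. Of the 10 members, 8 fell and 0 rose at an adjusted p-value under 0.05, and the median log2 fold change was -0.788, beside 0.0555 over all 15762 genes tested. Of all genes tested, 22.8% fell and 27.0% rose by the same criterion, so that rises made up 54.2% of the calls, or 75.1% on library totals. The untreated and treated libraries did not overlap for 10 of 10 members, and 33.9% of all genes tested were lower in treated cells without overlap. All levels are relative to the library, and in bulk RNA fewer cells of a type and less RNA per cell cannot be told apart. The 9 ES cell markers fell at the same time, from a summed 2756 to 3782 CPM to 1373 to 1862 CPM, with 8 of 9 called lower, and their part in the fall of the Polycomb genes was not tested.

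**Figure D1:**
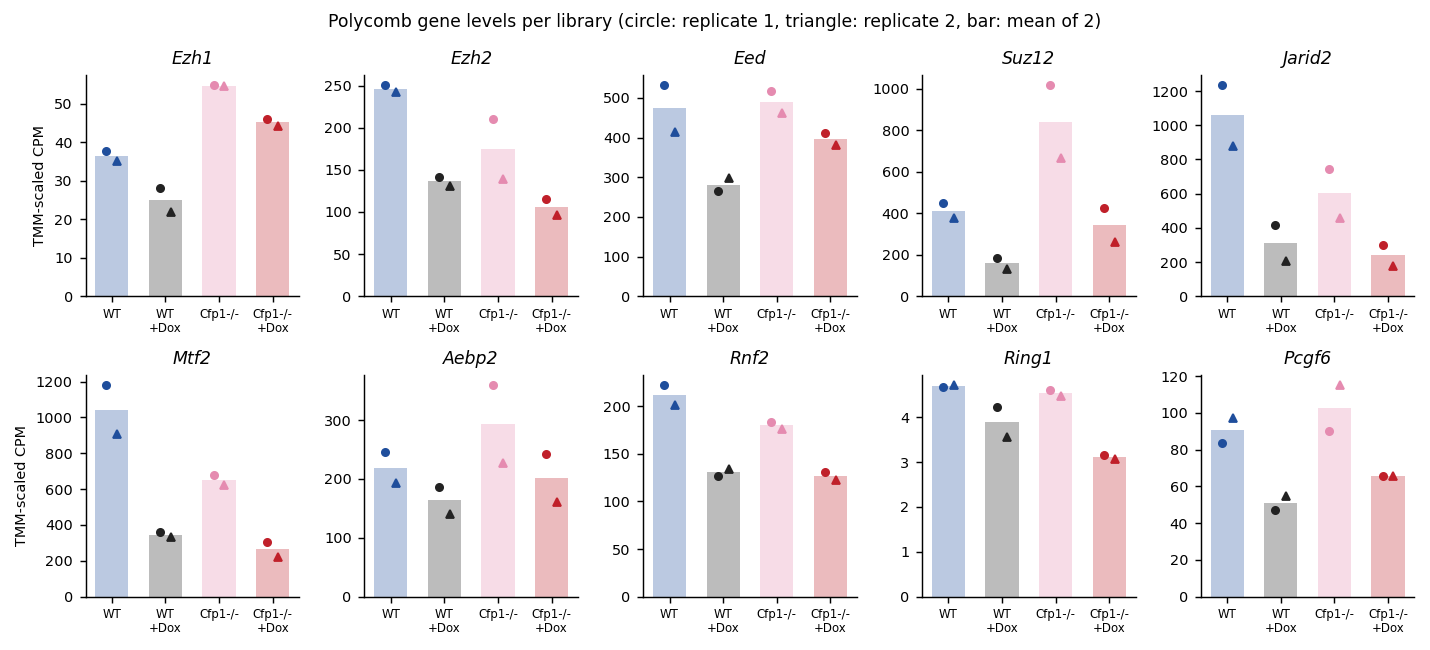
Level of each of the 10 Polycomb genes in every biological replicate, in TMM-scaled CPM on an axis from 0, for WT and Cfp1-/- ES cells without and with doxorubicin (+Dox); points are libraries and bars are means of 2. In WT cells every treated library lies below both untreated libraries for all 10 genes, and Suz12 and Ezh1 stand higher in both Cfp1-/- groups than in the WT group of the same treatment.

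Among the PRC2 core genes in WT cells, Suz12 fell most, from 447 and 379 CPM to 186 and 133 CPM. Suz12 was thus 2.59-fold lower after treatment (log2 fold change -1.37 ± 0.27 SE, adjusted p = 0.00258). Ezh2, the main methyltransferase, fell from 250 and 242 CPM to 141 and 131 CPM, with replicates close together in both groups (log2 fold change -0.85 ± 0.19 SE, adjusted p = 0.00421). Eed fell from 532 and 414 CPM to 264 and 298 CPM (-0.75 ± 0.15 SE, adjusted p = 0.00226). Ezh1, the methyltransferase more typical of cells that have stopped dividing, fell from 37.6 and 35.0 CPM to 28.1 and 21.9 CPM, the smallest change called (-0.54 ± 0.15 SE, adjusted p = 0.0148). That call was lost on library totals (-0.23, adjusted p = 0.245), where the median of all genes lay 0.31 higher, in a fit on the WT libraries alone (adjusted p = 0.0585), and without replicate 1 of the untreated (adjusted p = 0.075) or replicate 2 of the treated WT cells (adjusted p = 0.0859).

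The accessory subunits Jarid2 and Mtf2 had the largest estimated falls. Jarid2 stood at 1235 and 880.5 CPM without and at 415 and 208 CPM with doxorubicin, 3.4-fold lower (log2 fold change -1.76 ± 0.37 SE, adjusted p = 0.00358), with a wide spread between replicates in both groups. Mtf2 went from 1179 and 907 CPM to 359 and 331 CPM, 3.02-fold lower, with the smallest adjusted p of the members (-1.59 ± 0.18 SE, adjusted p = 9.51e-05). Aebp2 stood at 245 and 194 CPM before and at 187 and 140 CPM after treatment. Its groups did not overlap, but the difference did not pass (-0.43 ± 0.26 SE, adjusted p = 0.203), whereas it did with the replicate number as a block (-0.43 ± 0.11 SE, adjusted p = 0.0055).

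Of the PRC1 members, Rnf2 fell from 222 and 201.9 CPM to 126 and 135 CPM (log2 fold change -0.70 ± 0.11 SE, adjusted p = 0.000779). Pcgf6 fell from 83.7 and 97.0 CPM to 47.0 and 54.8 CPM (-0.83 ± 0.15 SE, adjusted p = 0.00184). Ring1 gave only 118 and 97 counts in untreated and 67 and 70 in treated cells, or 4.68 and 4.71 against 4.23 and 3.56 CPM. No difference in Ring1 was detectable at this depth (-0.27 ± 0.25 SE, adjusted p = 0.4), and on library totals its value was 0.04. The ligase gene that carried nearly all of the transcript pool, Rnf2, was the one with a measured fall. With the study's further limits on fold change (2.5 or more) and on the mean level (200 normalized counts or more), 3 members were called lower in WT cells (Suz12, Jarid2 and Mtf2), beside 2.80% of all genes tested.

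In Cfp1-/- ES cells doxorubicin lowered 6 of the 10 members and raised 0, with a median log2 fold change of -0.597, beside 0.0147 over all genes tested. Of all genes tested, 21.4% fell and 27.7% rose, so that rises made up 56.4% of the calls, or 71.0% on library totals, and 37.3% were lower in treated cells without overlap, as were 9 of the 10 members. Suz12 fell from 1018 and 664 CPM to 424 and 261 CPM (log2 fold change -1.30 ± 0.27 SE, adjusted p = 0.0035). Mtf2 fell from 681 and 621 CPM to 305 and 224 CPM (-1.30 ± 0.18 SE, adjusted p = 0.000314), and Jarid2 from 745 and 458 CPM to 302 and 178 CPM (-1.33 ± 0.37 SE, adjusted p = 0.0145). These 3 genes were again the members with the largest falls, each between 2.46- and 2.51-fold. Only Jarid2 also passed the limits on fold and mean, beside 2.21% of all genes tested. The 9 ES cell markers went from a summed 3500 to 3502 CPM to 1424 to 1688 CPM, with 7 of 9 called lower, and their part in these falls was not tested.

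Smaller falls were measured for Ezh2, Rnf2 and Pcgf6 in Cfp1-/- cells. Ezh2 went from 211 and 139 CPM to 115 and 96.4 CPM (log2 fold change -0.72 ± 0.19 SE, adjusted p = 0.01). Rnf2 went from 184 and 176 CPM to 131 and 122 CPM (-0.51 ± 0.11 SE, adjusted p = 0.00458). Pcgf6 went from 90.0 and 115 CPM to 65.8 and 65.5 CPM (-0.64 ± 0.15 SE, adjusted p = 0.00702), and had the technical replicate that held no Pcgf6 counts been kept, its fall would have been measured as -0.92. Eed stood at 517 and 461 CPM without and at 411 and 381 CPM with doxorubicin, which did not pass (-0.30 ± 0.14 SE, adjusted p = 0.109), but did with the left-out technical replicate included (adjusted p = 0.0467). Ezh1 (-0.27 ± 0.15 SE, adjusted p = 0.157), Aebp2 (-0.54 ± 0.26 SE, adjusted p = 0.115) and Ring1 (-0.55 ± 0.26 SE, adjusted p = 0.105) did not pass either. Aebp2 was called with the replicate number as a block (-0.53 ± 0.11 SE, adjusted p = 0.00143). Several of these calls rested on single libraries, since 2 members (Suz12 and Mtf2) were called without replicate 2 of treated and 4 without replicate 1 of untreated Cfp1-/- cells.

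The response did not differ detectably between the lines for any member. The test of the difference between the responses called 0 of 10 members with edgeR's quasi-likelihood test, 0 at an unadjusted p-value under 0.05 and 0 with DESeq2, and 0.247% of all genes tested were called. In the reported fit Eed had the largest difference, with a fall that was 0.45 ± 0.20 SE smaller in Cfp1-/- cells on the log2 scale (adjusted p = 0.445). With the replicate number as a block it was 0.44 ± 0.18 SE, below Jarid2 at 0.49 ± 0.17 SE. With the second technical replicates of replicate 1 of both treated groups also left out, Eed stood at 0.34 ± 0.15 SE and Jarid2 at 0.49 ± 0.17 SE. For Suz12 the difference was 0.07 ± 0.38 SE, for Jarid2 0.44 ± 0.51 SE and for Mtf2 0.29 ± 0.25 SE, so for Jarid2 and Suz12 differences as large as these standard errors could not be seen with 2 libraries a group. For 8 of 10 members the difference was positive, that is, the estimated fall was smaller in Cfp1-/- cells, and these estimates share no test that passed. The calls of Ezh1 and Eed in WT but not in Cfp1-/- cells are thus not shown to differ between the lines.

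**Figure D2:**
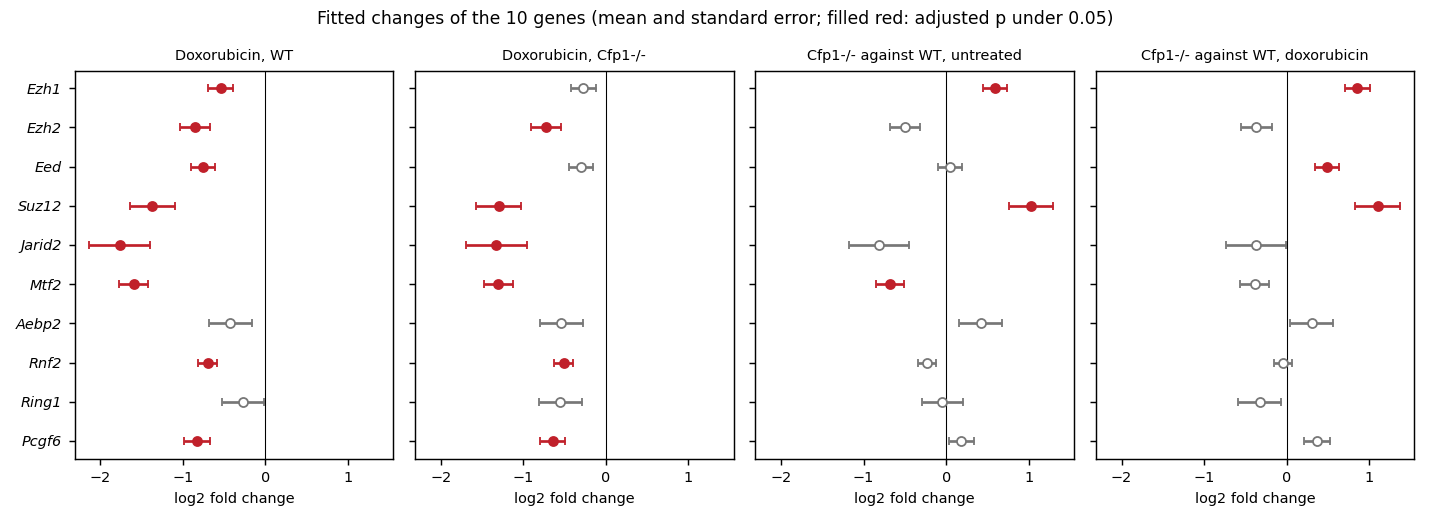
Log2 fold change of each of the 10 Polycomb genes with its standard error, for doxorubicin in each line and for Cfp1-/- against WT cells without and with doxorubicin; filled red points have an adjusted p-value under 0.05. All 10 values lie below 0 for doxorubicin in both lines, while between the lines Suz12 and Ezh1 lie to the right of 0 and Mtf2 to the left.

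Between the untreated lines the number of members called was near the share of all genes. In untreated Cfp1-/- cells 2 members were higher (Suz12 and Ezh1) and 1 was lower (Mtf2) than in untreated WT cells, beside 18.7% and 17.2% of all genes tested, 7 did not pass, and the median over the members was -6e-05, beside 0.00556. Suz12 stood at 1018 and 664 CPM against 447 and 379 CPM, 2.04-fold higher (log2 fold change 1.03 ± 0.27 SE, adjusted p = 0.0158). Ezh1 stood at 54.9 and 54.5 CPM against 37.6 and 35.0 CPM, 1.5-fold higher with hardly any spread between replicates (0.59 ± 0.15 SE, adjusted p = 0.0136). Mtf2 stood at 681 and 621 CPM against 1179 and 907 CPM, 1.6-fold lower (-0.68 ± 0.17 SE, adjusted p = 0.0141). The groups did not overlap for 7 of 10 members, and 35.9% and 34.1% of all genes tested were higher and lower without overlap. Together these shares are about that of the members. Between the untreated lines summed trophoblast markers also separated, at 17.1 to 28.1 CPM in WT and 52.2 to 60.9 CPM in Cfp1-/- cells. Of 3 tested, 2 were called higher. Most of the sum was Tfap2c, with 804 and 375 counts in WT against 1348 and 1296. The other called marker, Elf5, had 1 and 0 against 34 and 11. Elf5 passed the filter on low counts only through Cfp1-/- libraries, so it could be called only as higher there. The untested Cdx2 went the other way, with 14 and 29 against 5 and 1. Summed fibroblast markers stood at 8.73 to 9.69 against 3.42 to 3.91 CPM, with 3 of 6 called lower. Among these, Col3a1 had 73 and 43 against 0 and 1 counts. Col3a1 passed the filter only through WT libraries, so it could be called only as lower in Cfp1-/- cells. Dcn, however, had 6 and 16 against 13 and 27 counts and Postn 6 and 0 against 3 and 11. The part of these markers in the differences was not tested. The untreated WT libraries of this comparison are also the controls of the doxorubicin response in WT cells.

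Jarid2 and Ezh2 lay lower in untreated Cfp1-/- cells without passing the test. Jarid2 stood at 745 and 458 CPM against 1235 and 880.5 CPM (log2 fold change -0.81 ± 0.36 SE, adjusted p = 0.108), and Ezh2 at 211 and 139 CPM against 250 and 242 CPM (-0.50 ± 0.18 SE, adjusted p = 0.0612). With the replicate number as a block, 6 members were called, with Jarid2 (-0.84 ± 0.12 SE, adjusted p = 0.000165), Ezh2 (-0.52 ± 0.13 SE, adjusted p = 0.00672) and Aebp2 (0.39 ± 0.11 SE, adjusted p = 0.013) added to the 3. The block also raised the calls among all 15762 genes tested, from 2946 higher and 2705 lower to 3645 and 3518. Eed, with 517 and 461 CPM against 532 and 414 CPM, differed by 0.05 ± 0.14 SE and Ring1 by -0.05 ± 0.25 SE, while Rnf2 (-0.23 ± 0.11 SE, adjusted p = 0.129) and Pcgf6 (0.18 ± 0.15 SE, adjusted p = 0.375) also did not pass. Without replicate 2 of untreated WT cells only Mtf2 was called, without replicate 1 of untreated Cfp1-/- cells only Ezh2, and without replicate 2 of untreated Cfp1-/- cells only Suz12.

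After doxorubicin, Suz12 and Ezh1 again stood higher in Cfp1-/- than in WT cells. Of the members, 3 were higher and 0 lower, beside 16.0% and 12.1% of all genes tested, with a median of 0.129, beside 0.0224. No lower member was called at an unadjusted p-value under 0.05 (0 of 10) or with DESeq2 (0 of 10). Suz12 stood at 424 and 261 CPM against 186 and 133 CPM (log2 fold change 1.1 ± 0.27 SE, adjusted p = 0.0161), and its treated Cfp1-/- level of 342 ± 115 CPM (SD, n = 2) stood beside the 413 ± 48.6 CPM of untreated WT cells. Ezh1 stood at 46.2 and 44.3 CPM against 28.1 and 21.9 CPM, 1.81-fold higher (0.86 ± 0.15 SE, adjusted p = 0.00399). Eed stood at 411 and 381 CPM against 264 and 298 CPM (0.49 ± 0.15 SE, adjusted p = 0.0321), a call that was lost when the left-out technical replicate was included (adjusted p = 0.0816), with the second run of replicate 1 left out in both treated groups (adjusted p = 0.0583), with first technical replicates alone (adjusted p = 0.0527) and without any 1 of the 4 treated libraries. Suz12 was not called without replicate 2 of treated WT (adjusted p = 0.0893) or replicate 1 of treated Cfp1-/- cells (adjusted p = 0.128), which left Ezh1 as the only member called.

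Among the other members after doxorubicin, Mtf2 differed by -0.39 ± 0.17 SE (adjusted p = 0.126), Jarid2 by -0.38 ± 0.36 SE (adjusted p = 0.467), Ezh2 by -0.37 ± 0.19 SE (adjusted p = 0.17) and Pcgf6 by 0.37 ± 0.15 SE (adjusted p = 0.107) on the log2 scale. Aebp2 (0.30 ± 0.26 SE), Ring1 (-0.33 ± 0.26 SE) and Rnf2 (-0.05 ± 0.11 SE) did not pass either. With the replicate number as a block 7 members were called, 4 higher and 3 lower, with Mtf2 (adjusted p = 0.0156), Ezh2 (adjusted p = 0.0438), Jarid2 (adjusted p = 0.0421) and Pcgf6 (adjusted p = 0.0312) added. Among all 15762 genes tested, calls also rose with the block, from 2518 higher and 1900 lower to 3372 and 2755. The groups did not overlap for 7 of 10 members, and 35.3% and 31.6% of all genes tested were higher and lower without overlap. Trophoblast markers summed to 26.8 to 43.4 CPM in treated WT and 35.4 to 46.0 CPM in treated Cfp1-/- cells, which overlapped. With the technical replicate that held no Pcgf6 counts included, Pcgf6 differed by 0.09.

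Ratios of counts per kb of exon between PRC2 genes separated the lines. They are given as descriptions, with 2 libraries a group and no test. Each ratio that separated holds Suz12, Ezh1 or Mtf2, which were called between the untreated lines. The separation therefore restates those differences and is not a further result. The ratios to Suz12 were chosen after its values were seen, and how often other gene pairs separate was not tested. The ratio of Ezh1 to Ezh2 was 0.125 and 0.121 in untreated and 0.165 and 0.139 in treated WT cells, against 0.217 and 0.327 in untreated and 0.333 and 0.383 in treated Cfp1-/- cells. Ezh2 transcripts were thus the majority in every library, and all Cfp1-/- libraries lay above all WT libraries. Jarid2 to Suz12 was 1.41 and 1.18 in untreated and 1.14 and 0.795 in treated WT cells, but 0.372 and 0.351 in untreated and 0.363 and 0.347 in treated Cfp1-/- cells. Mtf2 to Suz12 was 2.48 and 2.25 in untreated and 1.81 and 2.34 in treated WT cells, against 0.628 and 0.878 in untreated and 0.676 and 0.803 in treated Cfp1-/- cells. For both accessory subunits the WT and Cfp1-/- libraries did not overlap, whereas the Mtf2 ratios of untreated and treated cells overlapped within each line. Ring1 to Rnf2 lay between 0.0197 and 0.0312 in all 8 libraries, with no separation between the lines.

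**Figure D3:**
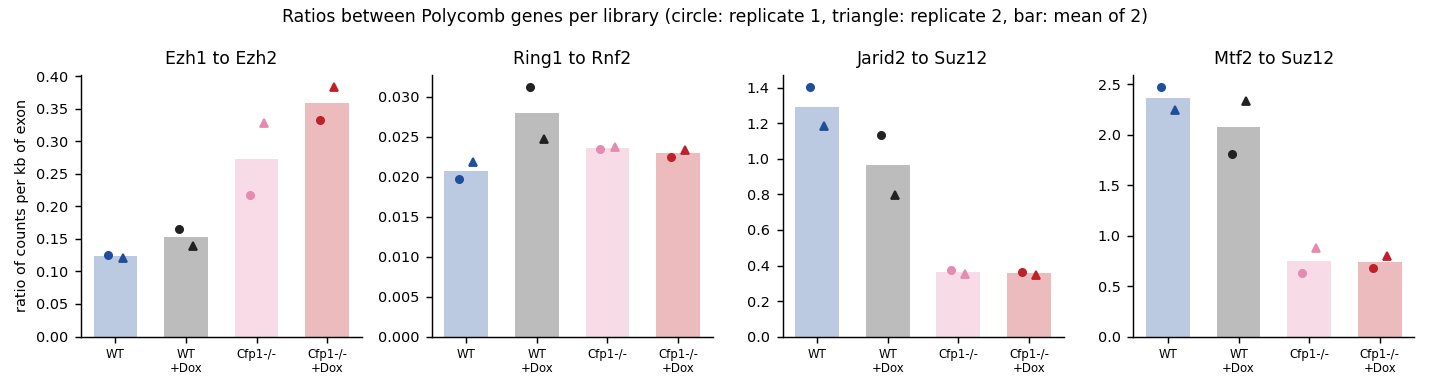
Ratios of counts per kilobase of exon between pairs of Polycomb genes in each library, on axes from 0, for the 4 groups; points are libraries and bars are means of 2. Jarid2 to Suz12 and Mtf2 to Suz12 are lower, and Ezh1 to Ezh2 is higher, in every Cfp1-/- library than in every WT library.

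Several members differed in the same direction between replicates 1 and 2 of every group. Suz12, Jarid2, Mtf2, Aebp2, Ezh1 and Ezh2 were higher in replicate 1 than in replicate 2 in 4 of 4 groups, as were 14.2% of all genes tested. For Ezh1 (1.01- to 1.28-fold) and for Ezh2 in WT cells (1.04- and 1.08-fold) the excess was small. For Jarid2 the excess was 1.4- and 2.0-fold in untreated and treated WT and 1.62- and 1.69-fold in untreated and treated Cfp1-/- cells, and for Suz12 it was 1.18- and 1.4-fold and 1.53- and 1.62-fold. Pcgf6 went the other way and was higher in replicate 1 in 1 of 4 groups. For doxorubicin in WT cells, the standard errors of Jarid2, Suz12 and Aebp2 were 0.37, 0.27 and 0.26 without and 0.13, 0.12 and 0.11 with the replicate number as a block.

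For each member, the gene whose level followed it most closely over the 8 libraries was found by the smallest root mean square difference of centred log2 CPM. Ezh1 was nearest to Opa3 (0.0746), Ezh2 to Ptpmt1 (0.0925), Eed to Ppp6r3 (0.0997), Suz12 to Gnpnat1 (0.189) and Jarid2 to Enpp4 (0.132). Mtf2 was nearest to 8430410A17Rik (0.0972), Aebp2 to D130040H23Rik (0.11), Rnf2 to Lsg1 (0.0515), Ring1 to Man1b1 (0.0544) and Pcgf6 to Elovl5 (0.0568). The median distance of all genes tested was between 0.56 and 1.06. No member was the nearest gene of another, and Suz12 had the most distant nearest gene.

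Of further genes, 48 were listed with the members, all tested, namely 40 of PRC2 and PRC1 and 8 whose products act against Polycomb. In WT cells doxorubicin lowered 27 and raised 8 of these, with a median log2 fold change of -0.46, and in Cfp1-/- cells it lowered 20 and raised 6, with a median of -0.374. Of all genes tested, 22.8% fell and 27.0% rose in WT and 21.4% fell and 27.7% rose in Cfp1-/- cells. Together with Eed, Suz12, Ezh1 and Ezh2, the histone chaperones Rbbp7 (-0.49 ± 0.16 SE, adjusted p = 0.0265) and Rbbp4 (-0.42 ± 0.16 SE, adjusted p = 0.0467) fell in WT cells. Thus 6 of 6 PRC2 core genes were called lower there and 2 of 6 in Cfp1-/- cells. In Cfp1-/- cells Rbbp7 (-0.33 ± 0.16 SE) and Rbbp4 (-0.24 ± 0.16 SE) also had negative estimates. The edgeR test of the difference between the responses called 0 of these 6 genes (Rbbp7 0.16 ± 0.22 SE, adjusted p = 0.841, and Rbbp4 0.18 ± 0.22 SE, adjusted p = 0.806). These calls are thus not shown to differ between the lines. In untreated Cfp1-/- cells, where Suz12 was higher, Rbbp7 (-0.72 ± 0.16 SE, adjusted p = 0.00683) and Rbbp4 (-0.63 ± 0.16 SE, adjusted p = 0.0123) were lower than in WT cells.

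The other accessory subunits of PRC2 did not all follow Mtf2 and Jarid2. Phf19, a paralogue of Mtf2, fell in WT (log2 fold change -1.64 ± 0.39 SE, adjusted p = 0.0069) and Cfp1-/- cells (-1.91 ± 0.39 SE, adjusted p = 0.00313). Phf1, the third member of that family, rose instead, from 79 and 58 to 354 and 341 counts in WT cells (2.73 ± 0.23 SE, adjusted p = 2.17e-05) and from 151 and 140 to 174 and 301 counts in Cfp1-/- cells (1.16 ± 0.22 SE, adjusted p = 0.0019). The difference between these responses of Phf1 did not pass (-1.57 ± 0.31 SE, adjusted p = 0.0944). Per kb of exon, Mtf2 still stood above Phf1 in treated cells, at 65.6 ± 3.71 against 8.17 ± 1.45 CPM in WT and 50.2 ± 10.9 against 5.67 ± 0.234 CPM in Cfp1-/- cells (SD, n = 2). Epop, a subunit that joins the Mtf2-containing form of PRC2, fell in WT (-0.88 ± 0.26 SE, adjusted p = 0.0192) and Cfp1-/- cells (-1.26 ± 0.25 SE, adjusted p = 0.00286) and was higher in Cfp1-/- cells without (2.65 ± 0.27 SE, adjusted p = 0.000199) and with doxorubicin (2.26 ± 0.27 SE, adjusted p = 0.000688). Ezhip, an inhibitor of PRC2 encoded on chromosome X, had 1, 2, 2 and 3 counts in the WT libraries, at or under the floor of 3 counts, against 111 and 85 in untreated and 45 and 60 in treated Cfp1-/- cells, and no fold is given.

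Among the PRC1 genes listed with Rnf2, Ring1 and Pcgf6, more fell than rose with doxorubicin, and the counts are read beside the 22.8% and 21.4% of all genes that fell and the 27.0% and 27.7% that rose in WT and Cfp1-/- cells. Of the 5 other Pcgf and related core genes, 3 fell and 1 rose in each line, with Bmi1 (Pcgf4) lower in WT (-1.11 ± 0.26 SE, adjusted p = 0.00615) and Cfp1-/- cells (-1.15 ± 0.26 SE, adjusted p = 0.00534) and Pcgf3 raised in WT (0.74 ± 0.12 SE, adjusted p = 0.00079) and Cfp1-/- cells (1.16 ± 0.12 SE, adjusted p = 7.21e-05). Of 18 subunits of variant PRC1, 10 fell and 3 rose in WT and 8 fell and 3 rose in Cfp1-/- cells. Mga, the DNA-binding partner of Pcgf6 in PRC1.6, fell in WT (-1.39 ± 0.13 SE, adjusted p = 3.39e-05) and Cfp1-/- cells (-1.03 ± 0.13 SE, adjusted p = 0.000186). Bcor, a partner of Pcgf1, fell by 1.69 ± 0.17 SE (adjusted p = 6.12e-05) and 1.40 ± 0.17 SE (adjusted p = 0.000173) on the log2 scale. Of 10 subunits of canonical PRC1, 5 fell and 2 rose in WT and 3 fell and 1 rose in Cfp1-/- cells, the latter near the share of all genes that fell, with Phc2 raised in both lines (1.76 ± 0.30 SE, adjusted p = 0.00102, and 1.55 ± 0.29 SE, adjusted p = 0.00199). Between the untreated lines Rnf2, Ring1 and Pcgf6 were not called, while Scml2, a PRC1-associated gene on chromosome X, had 129 and 126 counts in WT and 4154 and 4823 counts in Cfp1-/- cells (5.07 ± 0.21 SE, adjusted p = 1.46e-06).

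**Figure D4:**
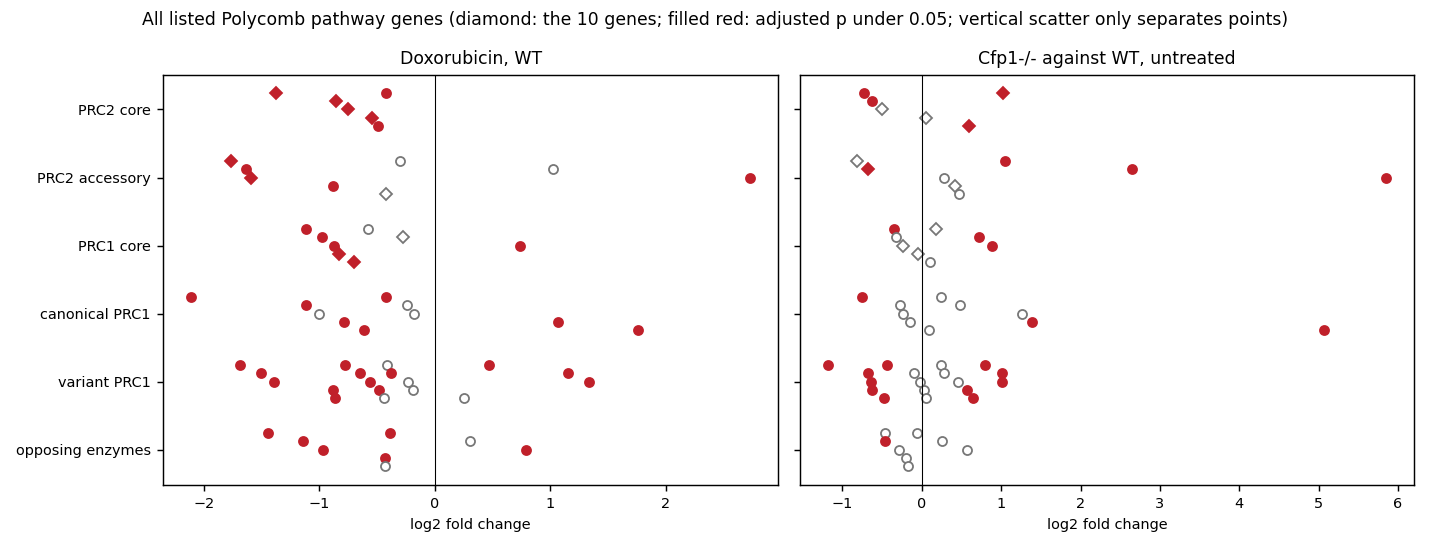
Log2 fold change of every listed Polycomb pathway gene by role, for doxorubicin in WT cells (left) and for untreated Cfp1-/- against WT cells (right); diamonds are the 10 members, circles the 48 other genes, the 8 opposing ones included, and filled red symbols have an adjusted p-value under 0.05. On the left most red symbols lie below 0 in every row, with Phf1 at 2.73 the farthest to the right, and on the right red symbols lie on both sides, with Ezhip, which is at the floor in WT cells so that its position is not a measured fold, and Scml2 far to the right.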

How the data were processed

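Strand-specific libraries of rRNA-depleted RNA were sequenced, and the authors aligned the reads to NCBIm37 with STAR (2.2.1 in the submitters' processing notes), ran HTSeq-count in its stranded union mode on the exons of Ensembl genes, and deposited raw counts per technical replicate. They also deposited a normalized signal per biological replicate, which is the sum of the raw counts after division by DESeq's size factor. The stranded mode keeps reads of opposite-strand neighbours apart, such as Tmed5 beside Mtf2, which shares 7.51% of its exon length.

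The raw counts of the technical replicates were summed, leaving out the affected technical replicate, and fitted with edgeR 4.0.16 in R 4.3.3 (filterByExpr, TMM, 1 coefficient per group, glmQLFit, glmQLFTest). P-values were adjusted by Benjamini-Hochberg over 15762 genes, and a call is an adjusted p-value under 0.05. Levels of single genes are CPM on TMM-scaled library sizes, divided by exon length (22324 of 22375 genes matched the annotation by identifier) where genes are compared. Summed marker levels are CPM on library totals without TMM. The sources used here do not say what separates the 2 biological replicates of a group, so p-values measure the spread between these samples. Replicate numbers are shared by all groups, and same-numbered samples deviated together (correlation of deviations from group means 0.133 to 0.453 over 6 pairs of groups). They were therefore read as pairing the samples. The reported fit holds no block and ignores this pairing, as do its counts, standard errors and p-values. The value with the replicate number as a block is an alternative and is given where it changes a call. The scripts were tested on simulated counts.

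The members and gene lists were chosen with earlier results of these data known. Named are all 10 members, for each pathway list and comparison at most 3 called genes with the largest change, the nearest gene to each member, and Cxxc1. The ratios to Suz12 were chosen after its values were seen. Promoter windows are from RefSeq (GRCm38.p6), whose coordinates are not those of NCBIm37. Alternatives were DESeq2 (1.42.0) size factors and Wald test, library totals, no filter, the block, other sets of technical replicates, the compared groups alone, the study's fold and mean limits, and each replicate left out.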

Additional observations from a re-analysis of the deposited data

How the results depend on the processing

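Leaving out 1 replicate in turn left 7 to 8 members called for doxorubicin in WT, 2 to 7 in Cfp1-/- cells, 0 throughout for the difference between responses, 1 to 3 between the untreated and 1 to 3 between the treated lines; these fits assume that the lone library of a group varies like the other groups. The number of all genes called varied between these fits too. With the replicate block 9, 7, 0, 6 and 7 members were called in these comparisons, beside 9016, 8954, 352, 7163 and 6127 of all 15762 genes. With the second technical replicates of replicate 1 of both treated groups also left out, 6 and 8 were called between the untreated and the treated lines. There 7289 and 6091 of all 15766 genes were called, in a setting chosen after seeing the data. Without a filter on low counts 5 members were called between the untreated lines, beside 6028 of all 19729 genes. With the fold and mean limits 3, 1, 0, 0 and 0 members were called, beside 1246, 1184, 30, 526 and 424 of all 15762 genes. No value called in the reported fit changed sign under any alternative. Scaling by library totals raised the share of rises among all calls for doxorubicin from 54.2% to 75.1% in WT and from 56.4% to 71.0% in Cfp1-/- cells, and between the lines from 52.1% to 70.4% untreated and from 2518 of 4418 to 2951 of 4402 calls treated, and left 7 and 6 members lower with doxorubicin in WT and Cfp1-/- cells. The difference between responses called 39 of all genes tested, but 246 with DESeq2, 228 without the filter, 352 with the block and 387 with block and technical replicates left out, and 0 to 20 with 1 replicate left out; the cause was not tested. Ratios by protein coding length were not run. Depth limits Ring1, with 41 to 118 counts a library.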

Other observations

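Of 40 developmental regulators listed as typical Polycomb targets, 23 passed the filter on low counts and the rest were too low to test. Doxorubicin raised 4 and lowered 5 of these in WT and raised 6 and lowered 6 in Cfp1-/- cells, where 27.0% and 27.7% of all genes tested rose and 22.8% and 21.4% fell, and their medians of 0.0222 and 0.102 lay beside 0.0555 and 0.0147 over all genes tested. The falls included Pax6, a neural transcription factor, from 2073 and 708 to 57 and 26 counts in WT cells (log2 fold change -4.60 ± 0.51 SE, edgeR adjusted p = 9.32e-05), and Otx2, a factor of the early epiblast and forebrain, from 563 and 1276 to 21 and 45 counts in Cfp1-/- cells (-4.32 ± 0.35 SE, adjusted p = 2.15e-05). Pax7 had 4 and 2 counts in untreated and 68 and 78 in treated WT cells. It passed the filter on low counts only through treated libraries, so it could be called only as raised. Between the untreated lines 4 were higher and 4 lower in Cfp1-/- cells, near the 18.7% and 17.2% of all genes, among them Olig2, a neural regulator, with 1 and 2 counts in WT and 780 and 702 in Cfp1-/- cells, and Neurog1 with 0 and 1 against 43 and 29. Olig2 and Neurog1 passed the filter only through Cfp1-/- libraries, so they could be called only as higher there. The counts of raised and higher targets include such genes. With doxorubicin Olig2 stood at 45 and 50 and Neurog1 at 1 and 0 counts in Cfp1-/- cells. Tbx3 had 288 and 70 counts in treated WT and 1653 and 1231 in treated Cfp1-/- cells (3.11 ± 0.80 SE, adjusted p = 0.0192).

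The 8 genes that act against Polycomb, such as H3K27 demethylases and the deubiquitinase complex of Bap1, are counted among the 48 above. Of these, 5 fell and 1 rose with doxorubicin in WT and 4 fell in Cfp1-/- cells, where 22.8% and 21.4% of all genes tested fell and 27.0% rose in WT. Asxl1, a partner of Bap1, fell in both (-1.45 ± 0.17 SE, adjusted p = 0.000128, and -1.42 ± 0.17 SE, adjusted p = 0.000161), as did the demethylase Kdm6a (-1.14 ± 0.12 SE, adjusted p = 5.65e-05, and -0.96 ± 0.12 SE, adjusted p = 0.000164). Of the summed markers of other cell types, primitive endoderm markers went from 2.57 to 4.08 CPM to 13.6 to 14.8 CPM in WT and from 9.88 to 10.6 CPM to 28.2 to 28.5 CPM in Cfp1-/- cells, with 1 of 5 called higher in WT (Pdgfra) and 3 of 5 in Cfp1-/- cells, while Sox7 had negative estimates in both. The 3 were Pdgfra, Gata4 and Sox17. In Cfp1-/- cells Gata4 had 6 and 7 counts without and 12 and 19 with doxorubicin, and Sox17 7 and 2 against 14 and 12. Sox17 passed the filter on low counts only through treated Cfp1-/- libraries, so it could be called there only as raised. The difference between the responses called 0 of these 5 markers. A further listed marker, Dab2, was not used. Fibroblast markers went from 8.73 to 9.69 CPM to 18.3 to 26.3 CPM in WT and from 3.42 to 3.91 CPM to 16.1 to 20.2 CPM in Cfp1-/- cells, with 2 of 6 called higher in each line, Col1a1 and Thy1 in WT and Col1a1 and Col1a2 in Cfp1-/- cells. The other 4 had negative estimates in WT, where the median of the list was -0.248. Neural markers summed to 97.6 to 216 CPM and mesoderm markers to 4.12 to 13.7 CPM over the 8 libraries. Their part in the results on Polycomb genes was not tested.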
